A study of Homo sapiens with 5 samples.

Results

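The early genes described here are 10 transcripts with the symbols EGR1, EGR2, EGR3, IER2, IER3, KLF2, KLF4, KLF6, KLF9 and KLF10, chosen by symbol from a table of 26475 gene rows, and all 10 had a row. They were followed in 5 RNA sequencing libraries of MDA-MB-231, a long-established human cell line of triple-negative breast cancer, with 1 library for each condition. Cells were kept at 20% O2 for 1 day or 10 days, at 1% O2 for 1 day (acute hypoxia) or 10 days (chronic hypoxia), or at 1% O2 for 10 days and then at 20% O2 for another 10 days (reoxygenated). No other agent is named in the labels, and all cells are of a single line. The study asks how a short and a long exposure to low oxygen differ and what follows when oxygen returns.

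Immediate early genes are transcribed within minutes of a growth factor or stress signal without the need for new protein, and their mRNAs are short-lived. Many are switched on by ERK signalling through serum response factor and its ELK partners, which bind a promoter element called the CArG box. The EGR proteins are zinc finger transcription factors of GC-rich sites, held in check by the NAB corepressors; the KLF proteins are zinc finger factors of GC and CACCC boxes with roles from growth arrest to differentiation; and the IER proteins are small regulators without zinc fingers. In tumour cells these genes report on growth factor, inflammatory, hormone and stress inputs.

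The pattern fell into 3 kinds. KLF9, KLF4, IER3 and, at very low counts, EGR3 were highest in the library of 10 days at 1% O2. EGR1 and KLF2 were highest in the library of 10 days at 20% O2, while KLF6, KLF10 and IER2 stayed within a 1.63-fold range over the 5 libraries. Within that range KLF10 and IER2 also had their highest value at 20% O2 for 10 days, and KLF6 at 1% O2 for 10 days. EGR2 was close to absent throughout.

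RefSeq promoter windows of build GRCh38.p14, 250 bases before to 50 bases after a gene start, were found for 7 of the 10 genes (9 windows, 3 of them for EGR2). The 4 printed here belong to the genes with opposite patterns at day 10, EGR1 and KLF2 on one side and KLF4 and KLF9 on the other. Capitals mark CArG boxes, the core of the hypoxia response element (ACGTG) and the half-site of the cyclic AMP response element (TGACG), searched on both strands. The windows are chr5:138465229-138465528 (plus strand), chr19:16324576-16324875 (plus), chr9:107489720-107490019 (minus) and chr9:70414608-70414907 (minus), each read 5′ to 3′ along its gene.
EGR1: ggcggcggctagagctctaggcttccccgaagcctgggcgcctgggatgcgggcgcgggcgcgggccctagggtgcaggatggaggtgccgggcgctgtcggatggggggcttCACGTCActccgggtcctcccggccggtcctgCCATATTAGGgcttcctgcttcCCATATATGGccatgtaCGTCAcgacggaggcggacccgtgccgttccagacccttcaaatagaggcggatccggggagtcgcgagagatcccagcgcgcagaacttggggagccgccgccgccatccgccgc
KLF2: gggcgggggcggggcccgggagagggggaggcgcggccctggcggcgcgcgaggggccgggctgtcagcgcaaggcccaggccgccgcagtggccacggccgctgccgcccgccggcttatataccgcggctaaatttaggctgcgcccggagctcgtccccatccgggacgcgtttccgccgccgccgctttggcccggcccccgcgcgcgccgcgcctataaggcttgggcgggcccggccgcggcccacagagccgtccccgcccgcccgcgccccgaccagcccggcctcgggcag
KLF4: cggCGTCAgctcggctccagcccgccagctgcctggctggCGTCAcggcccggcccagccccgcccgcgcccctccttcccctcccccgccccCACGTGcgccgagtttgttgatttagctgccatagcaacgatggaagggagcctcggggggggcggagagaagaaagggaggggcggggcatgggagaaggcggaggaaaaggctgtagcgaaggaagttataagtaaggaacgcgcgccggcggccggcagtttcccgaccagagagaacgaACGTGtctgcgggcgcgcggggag
KLF9: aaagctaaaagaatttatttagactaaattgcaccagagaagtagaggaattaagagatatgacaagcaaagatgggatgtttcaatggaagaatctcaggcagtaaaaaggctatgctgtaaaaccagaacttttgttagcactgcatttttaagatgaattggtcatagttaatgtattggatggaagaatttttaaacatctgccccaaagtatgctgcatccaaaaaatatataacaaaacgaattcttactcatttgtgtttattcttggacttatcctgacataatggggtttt

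EGR1 held 2 CArG boxes, CCATATTAGG and CCATATATGG, and the third EGR2 window held 1, CCATATATGG; a CArG box was present in 1.29% of 35116 windows of the same length. An ACGTG core was found in 21.4% of all windows. KLF4 held 3 matches, 2 of which overlap in a single CACGTG, and KLF6 held 2 that overlap in the same way. The second EGR2 window also held 2 that overlap in this way, EGR1 held 1 match, which overlaps a TGACG match, and IER2 held 1. TGACG was present in 24.6% of all windows and occurred 2 times in EGR1, 2 times in the third EGR2 window, 2 times in KLF4 and 1 time in IER2. An EGR site (GCGNGGGCG, 9.43% of windows) occurred 1 time each in EGR1, the second EGR2 window, KLF4 and KLF6 and 2 times in KLF2. GC boxes (GGGCGG, 45% of windows) numbered 6 in KLF2 and 4 each in KLF4, IER2 and the second EGR2 window; an EGR site and a GC box can overlap. The KLF9 window, with 32.7% G and C against 69% in KLF4 and 80.7% in KLF2, held none of these words. These are matches of letters, not sites of binding.

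The mRNAs were also read for the pentamer ATTTA, the core of AU-rich decay elements, in the 3′ untranslated region of GENCODE 29 transcripts. It was present in 9 of the 10 early genes (90%) and in 70.6% of 12383 tested genes, with a median of 3 and 2 copies, and none of the 10 held the longer word TTATTTATT (8.75% of tested genes). IER3 was the most dense, with 6 copies in 737 bases (8.14 per kilobase, against a median of 1.63 per kilobase over tested genes), and IER2 held none. The stretch of 25 bases that starts at base 257 of the IER3 3′ untranslated region shows 2 of them in capitals.
IER3: cctaattaatATTTAtatgtATTTA

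Estimated counts summed to between 7719807 (reoxygenated) and 12544941 (20% O2, 10 days), and levels are given as CPM, counts scaled to a common library size with TMM factors, in which 1 read is worth 0.0816 to 0.126 CPM. Pairs of libraries were compared as log2 differences, with an exact 95% interval of the count ratio that covers counting error only. With 1 library per condition there is no replicate check and no test of a pair: each difference compares libraries, and culture-to-culture variation was not measured. Counts of higher and lower genes take differences of at least 1 in size (2-fold), and a smaller difference is given by its value, among 13940 genes with at least 1 CPM in 1 or more libraries. Of the 10 early genes 9 passed that filter; EGR2 did not, and EGR3 passed through the library of 10 days at 1% O2 alone, where it is high, so that its place in the counts below was set by that value and supports nothing. The line's markers VIM, CD44, ZEB1 and AXL were present in every library (50 to 2200 CPM) and the receptor genes ESR1 and PGR stayed at or below 0.384 CPM, while ERBB2 lay between 42.6 and 53 CPM. Of 13 markers of endothelium, blood and fibroblasts, HBB and CD3E had no count in any library and the highest, CD14, reached 3.84 CPM. The 13 markers summed to 5.01 CPM at 20% O2 for 1 day, 3.06 at 1% O2 for 1 day, 5.63 at 20% O2 for 10 days, 13.8 at 1% O2 for 10 days and 7.42 after reoxygenation, so that the sum was highest in the library in which KLF9, KLF4 and IER3 were highest; its part in their levels was not tested. CD44, which had the largest difference among the 4 markers of the line, was lower in that library by −1.08 (−1.12 to −1.03) against 20% O2 at day 10. Of 8 hypoxia-inducible factor targets, 5 were higher after 1 day at 1% O2 (2.11% of all tested genes). These were CA9, NDRG1, ANGPTL4, EGLN3 and BNIP3, named after their values were seen. After 10 days at 1% O2 7 of the 8 were higher (14.4% of all tested genes). The counts are a check of the oxygen labels, limited because the list was chosen with earlier results of these data known.

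**Figure D1:**
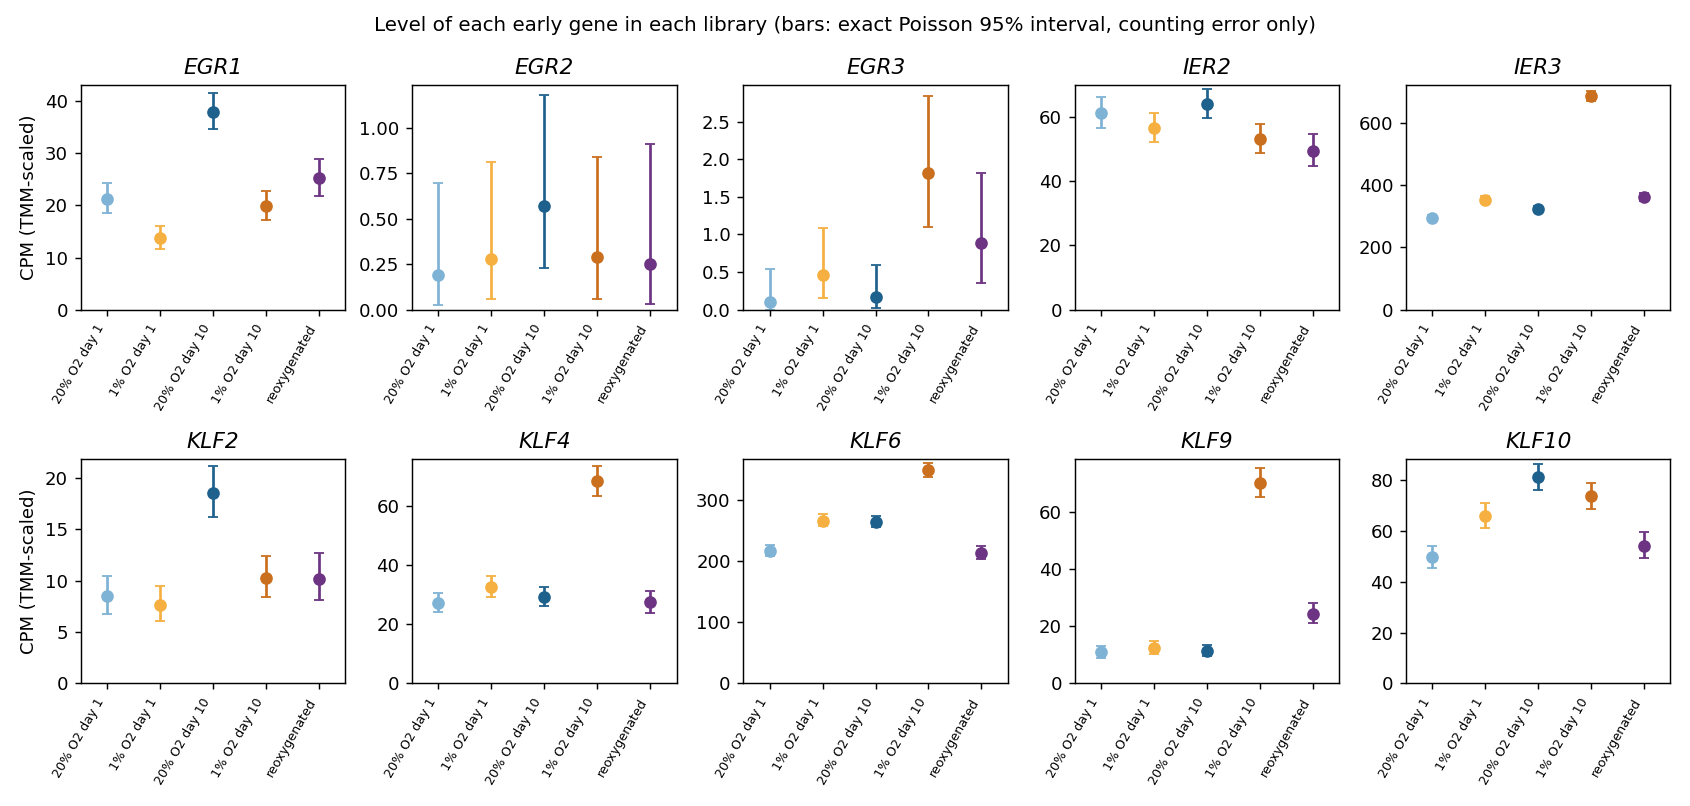
Level of each early gene (CPM, linear axes from 0, a scale of its own for each gene) in the 5 libraries; points are single libraries and bars are exact Poisson 95% intervals, which cover counting error only. KLF9, KLF4 and IER3 stand highest after 10 days at 1% O2, and EGR1 and KLF2 after 10 days at 20% O2.

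KLF9 (chromosome 9, 70384597 to 70414624, minus strand; 2 exons) encodes a factor induced by glucocorticoid and thyroid hormones that restrains proliferation in several tissues. Its level was 11 CPM at 20% O2 for 1 day, 12.5 at 1% O2 for 1 day, 11.3 at 20% O2 for 10 days, 70.1 at 1% O2 for 10 days and 24.4 after reoxygenation. The first 3 libraries could not be told apart by counting error, and the remaining pair stood above them in 2 separate steps. After 10 days at 1% O2 KLF9 was 6.14-fold higher, a log2 difference of 2.62 (2.37 to 2.91), whereas the difference after 1 day was 0.19 (−0.18 to 0.56). It was the early gene with the largest of the well-counted differences, and 98.45% of all tested genes had a chronic difference no larger.

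KLF4 (chromosome 9, 107484852 to 107490482, minus strand; 5 exons in the principal transcript) encodes a factor of epithelial differentiation that is also known as one of the reprogramming factors of stem cells. It stood at 27.3 CPM at 20% O2 for 1 day, 32.6 at 1% O2 for 1 day, 29.2 at 20% O2 for 10 days, 68.2 at 1% O2 for 10 days and 27.4 after reoxygenation. The library of 10 days at 1% O2 was the high one; no neighbouring pair in the order of the other 4 differed beyond counting error, though both day 1 libraries, which are not neighbours in it, did. The chronic difference was 1.22 (1.04 to 1.41), or 2.32-fold, and the acute one 0.26 (0.03 to 0.49).

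IER3 (chromosome 6, 30743199 to 30744554, minus strand; 2 exons), also called IEX-1, is an NF-kB-responsive regulator of survival under stress. Its level was 294 CPM at 20% O2 for 1 day, 353 at 1% O2 for 1 day, 322 at 20% O2 for 10 days, 684 at 1% O2 for 10 days and 362 after reoxygenation. At this depth small steps could be resolved: each neighbour in that order of levels differed beyond counting error except the 1% O2 library of day 1 and the reoxygenated library. IER3 was higher after 10 days at 1% O2 by 1.09 (1.03 to 1.14), or 2.12-fold, and after 1 day by 0.26 (0.19 to 0.33). Per kilobase of transcript IER3 was also the most abundant of the 10, at 550 CPM per kilobase after 10 days at 1% O2, followed by KLF6 at 75 and KLF4 at 24.2.

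EGR3 (chromosome 8, 22687659 to 22693302, minus strand; 2 exons), a factor known from muscle spindles and T cell tolerance, was at the edge of detection. It had 1 count at 20% O2 for 1 day, 5 at 1% O2 for 1 day, 2 at 20% O2 for 10 days, 19 at 1% O2 for 10 days and 7 after reoxygenation. On 19 and 2 counts the ratio scaled to library size was 11.2, a log2 ratio of 3.48 with an interval of 1.43 to 6.63; with the prior count of 2 used for all genes the log2 difference was 2.50. The acute ratio, on 5 and 1 counts, had an interval from −0.89 to 7.83 on the log2 scale, so that no difference was detectable at this depth. No neighbouring pair in the order of EGR3 levels differed beyond counting error.

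Of the 9 early genes tested, 4 were thus past 2-fold and higher after 10 days at 1% O2 and none was lower; with a filter of 5 CPM, which drops EGR3, there were 3, IER3, KLF4 and KLF9. Among all tested genes 14.4% were higher and 7.04% lower. The median of the 9 was 0.40, against 0.02 over all genes. It and the day 1 median below include EGR3, which passed the filter through its own high value. Without EGR3 the middle of the chronic values lies between KLF10 at −0.14 and KLF6 at 0.40. Without EGR3 the middle of the day 1 values lies between KLF9 at 0.19 and KLF4 at 0.26. Neither median was tested, and the members were chosen with earlier results of these data known. Neither is therefore read as a shift of the group. After 1 day 1 of the 9, EGR3, passed 2-fold on its 5 and 1 counts, a difference not detectable at this depth, none was lower, and the median was 0.26 against 0.00; 2.11% of all tested genes were higher and 0.839% lower. Scaling to library totals in place of TMM factors moved the median chronic difference of all genes from 0.02 to 0.14 and the share of higher genes among all those past 2-fold from 67.2% to 77.8%; the chronic difference of KLF9 was then 2.74 and that of IER3 1.21.

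**Figure D2:**
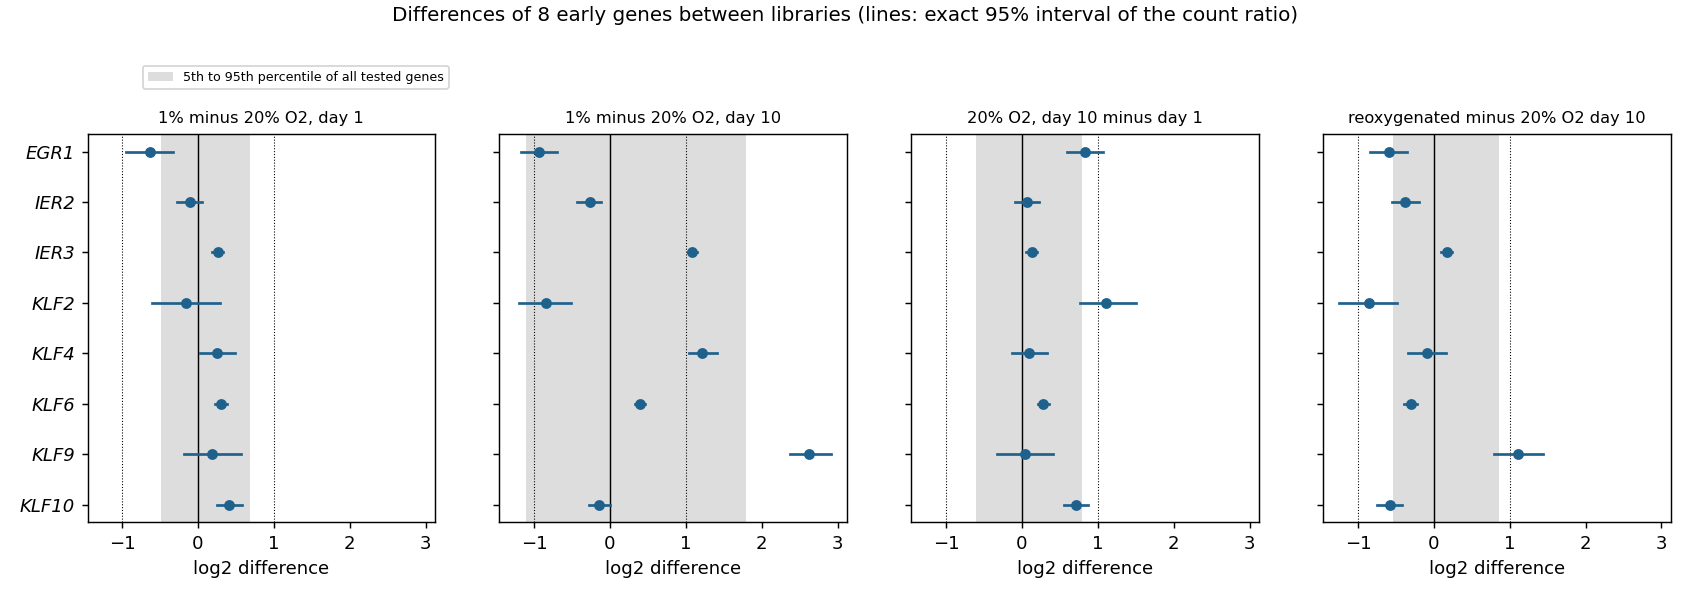
Log2 differences of the 8 early genes other than EGR2 and EGR3 in 4 pairs of libraries; points are single differences, lines exact 95% intervals of the count ratio, grey bands the 5th to 95th percentile of all 13940 tested genes, and dotted lines the 2-fold limits. Outside the band lie EGR1 in the first panel at −0.63, KLF9 in the second at 2.62, EGR1 at 0.83 and KLF2 at 1.11 in the third, and EGR1, KLF2, KLF9 and KLF10 in the fourth.

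EGR1 (chromosome 5, 138465490 to 138469315, plus strand; 2 exons), the standard readout of ERK signalling to the nucleus, went the other way. It stood at 21.3 CPM at 20% O2 for 1 day, 13.7 at 1% O2 for 1 day, 37.9 at 20% O2 for 10 days, 19.8 at 1% O2 for 10 days and 25.2 after reoxygenation. It was lower at 1% than at 20% O2 on both days, by −0.63 (−0.94 to −0.33) after 1 day and −0.93 (−1.18 to −0.70) after 10 days, and neither difference reached 2-fold. The acute value lay low among all genes: 2.71% of tested genes had an acute difference no larger. The 20% O2 libraries themselves differed by 0.83 (0.60 to 1.07), with the later one higher. Between 1% O2 at day 10 and 20% O2 at day 1, the difference was −0.10 (−0.38 to 0.18).

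KLF2 (chromosome 19, 16324817 to 16327874, plus strand; 3 exons), a factor of quiescence in endothelium and T cells, was also highest at 20% O2 for 10 days, at a lower level than EGR1. Its values were 8.48 CPM at 20% O2 for 1 day, 7.6 at 1% O2 for 1 day, 18.5 at 20% O2 for 10 days, 10.3 at 1% O2 for 10 days and 10.2 after reoxygenation. The library of 10 days at 20% O2 was high and no neighbouring pair in the order of the other 4 was told apart by counting error, though both 1% O2 libraries, the ends of that order, differed by 0.42 (0.004 to 0.87). The chronic difference was therefore negative, at −0.84 (−1.20 to −0.52), while the acute one was −0.15 (−0.61 to 0.29). KLF2 alone of the 9 passed 2-fold between the 20% O2 libraries, at 1.11 (0.77 to 1.50), where 3.06% of all tested genes were higher and 1.31% lower. This comparison shares a library with the chronic one, so a high value at 20% O2 for 10 days enters both with opposite sign; whether that library's culture differed otherwise was not tested.

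KLF6 (chromosome 10, 3775996 to 3785281, minus strand; 4 exons), a widely expressed family member studied as a tumour suppressor, lay at 217 CPM at 20% O2 for 1 day, 267 at 1% O2 for 1 day, 265 at 20% O2 for 10 days, 349 at 1% O2 for 10 days and 215 after reoxygenation. It was higher at 1% O2 on both days by similar amounts, 0.30 (0.22 to 0.38) and 0.40 (0.33 to 0.47), both short of 2-fold.

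KLF10 (chromosome 8, 102648779 to 102655902, minus strand; 4 exons), first known as a TGF-beta inducible early gene, stood at 49.6 CPM at 20% O2 for 1 day, 66 at 1% O2 for 1 day, 81.2 at 20% O2 for 10 days, 73.6 at 1% O2 for 10 days and 54.2 after reoxygenation. Its difference was 0.41 (0.25 to 0.58) after 1 day and −0.14 (−0.28 to −0.004) after 10 days. The day 10 value was −0.01 when scaled to library totals without TMM and −0.06 with a filter of 5 CPM.

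IER2 (chromosome 19, 13150415 to 13154908, plus strand; the principal transcript has 1 exon), a nuclear immediate early protein, was the steadiest of the tested early genes. Its levels were 61.2, 56.7, 64.1, 53.2 and 49.4 CPM in the order 20% O2 day 1, 1% O2 day 1, 20% O2 day 10, 1% O2 day 10 and reoxygenated. No neighbouring pair in its order differed beyond counting error, though libraries farther apart in it did, and its range over the libraries was 1.30-fold; 13.8% of tested genes had a range no larger. EGR2 (chromosome 10, 62811996 to 62919900, minus strand), which directs myelination in Schwann cells, had 2, 3, 7, 3 and 2 counts in the same order, or at most 0.571 CPM.

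**Figure D3:**
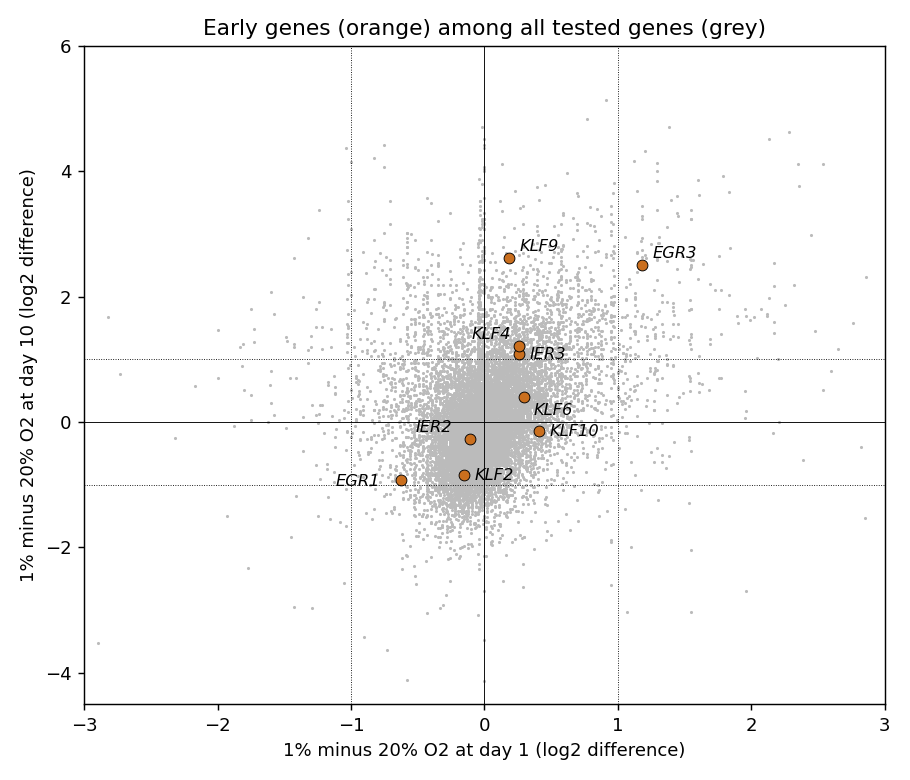
Log2 difference between 1% and 20% O2 at day 1 (horizontal axis) and at day 10 (vertical axis) for all tested genes (grey) and 9 early genes (orange), with dotted lines at 2-fold; 17 grey genes lie outside the axes. IER3, KLF4 and KLF9 sit near 0 on the horizontal axis and above 1 on the vertical one, and EGR1 is below 0 on both.

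Both 1% O2 libraries were then set against both 20% O2 libraries of day 1 and day 10 in edgeR's quasi-likelihood test with day as a term, the single contrast with 2 libraries per arm. Of 13011 genes tested, 0.899% rose and 0.0999% fell at an adjusted p under 0.05. None of the 8 early genes tested was called, which is near those shares. An unadjusted p under 0.05 was found for 4 of them and for 1593 of all 13011 genes. KLF9 came closest, with a log2 change of 1.48 (SE 0.41, edgeR adjusted p = 0.0795); its day 1 difference, 0.19, has an interval that includes 0. KLF4 had a log2 change of 0.76 (SE 0.29, edgeR adjusted p = 0.263), EGR1 −0.77 (SE 0.31, adjusted p = 0.28) and IER3 0.69 (SE 0.30, adjusted p = 0.339), each with 1 direction on both days. The remaining adjusted p in edgeR were 0.623 for KLF2, 0.632 for KLF6, 0.835 for IER2 and 0.858 for KLF10. DESeq2 called none of the 8, and limma-voom called 1, KLF9 (adjusted p = 0.00659). With 4 libraries and 3 coefficients, each gene has 1 residual degree of freedom of its own: how far the 2 days disagree. edgeR pools this with the spread over all tested genes, which weighs as 29.8 prior degrees of freedom. The SE and p-values thus rest mostly on that pooled spread, not on each gene's own.

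Within 1% O2, day 10 was higher than day 1 by 2.47 (2.22 to 2.76) for KLF9, by 1.06 (0.88 to 1.25) for KLF4 and by 1.62 for EGR3 on 19 and 5 counts, so that 3 of the 9 were higher and none lower (14.2% and 6.56% of all tested genes). IER3 came just short of 2-fold, at 0.96 (0.90 to 1.01). Taken as the day 10 difference minus the day 1 difference, the value was 2.43 (1.99 to 2.88) for KLF9 and 1.32 for EGR3, whose interval of −2.42 to 5.06 includes 0; these 2 of the 9 were past 2-fold and none was lower (12.5% and 6.18% of all tested genes). KLF4 followed at 0.96 and IER3 at 0.83, and the lowest were KLF2 at −0.69 and KLF10 at −0.55. The contrast has no test, since each of its 4 libraries is single.

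After reoxygenation the genes that were higher at 10 days of 1% O2 parted. KLF4 was lower than in the hypoxic library by −1.31 (−1.54 to −1.09) and did not differ beyond counting error from 20% O2 at day 10, at −0.09 (−0.34 to 0.16). IER3 was lower by −0.92 (−0.98 to −0.86) and was slightly above 20% O2 at day 10, by 0.17 (0.10 to 0.24). KLF9 was lower by −1.52 (−1.76 to −1.29) but was 2.15-fold above 20% O2 at day 10, with a difference of 1.10 (0.79 to 1.44). On the log2 scale this was 42.1% of its chronic difference, against 15.6% for IER3. The reoxygenated cells had 10 days at 1% O2 before their 10 days at 20% O2, and no 20% O2 library has the same total time. In comparisons with the 20% O2 libraries, time in culture and an after-effect of hypoxia cannot be told apart. Against the hypoxic library, the return of oxygen and 10 further days in culture cannot be told apart either. EGR3, on 7 and 2 counts, had a scaled ratio of 5.40 with a log2 interval of 0.04 to 5.73.

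Against the hypoxic library, 2 of the 9 early genes, KLF4 and KLF9, were lower after reoxygenation and none higher (11.2% and 5.6% of all tested genes). Against 20% O2 at day 10, KLF9 and EGR3 were higher and none was lower (3.4% and 1.41% of all tested genes); on the deposited TMM table, as log2(value + 1), KLF9 was at 0.99 and neither passed 2-fold. Both comparisons use the single reoxygenated library, which is also the shallowest. EGR1 and KLF2 were lower in the reoxygenated library than at 20% O2 for 10 days, by −0.59 (−0.84 to −0.35) and −0.85 (−1.25 to −0.49). KLF10 was lower by −0.58 (−0.75 to −0.42), IER2 by −0.37 (−0.55 to −0.20) and KLF6 by −0.30 (−0.39 to −0.22). Against 20% O2 at day 1 the interval of the reoxygenated level included 0 for KLF4 (0.01, −0.25 to 0.27), KLF6 (−0.02, −0.11 to 0.07), KLF10 (0.13, −0.06 to 0.32), EGR1 (0.24, −0.04 to 0.52) and KLF2 (0.26, −0.19 to 0.72). It did not for KLF9 (1.14, 0.81 to 1.50), IER3 (0.30, 0.23 to 0.37), IER2 (−0.31, −0.49 to −0.12) and, on 7 and 1 counts, EGR3.

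The rest of the KLF and SP family, zinc finger relatives that share the GC and CACCC boxes, was followed in the same libraries. Of 21 further members 15 passed the filter, and after 10 days at 1% O2 5 were higher and 1 lower, with a median of 0.21 against 0.02 over all genes (14.4% higher and 7.04% lower). KLF7 was highest, with 22.4 CPM at 20% and 97.6 at 1% O2 for 10 days, a difference of 2.12 (1.93 to 2.32), and it also rose in the test over both days (edgeR adjusted p = 0.00981), alone of the 14 relatives tested. KLF13 differed by 1.25 (1.05 to 1.46), KLF11, a close relative of KLF10, by 1.17 (0.98 to 1.37), and KLF5, a factor of epithelial growth, by 1.16 (1.03 to 1.29). The other higher one was KLF12 at 1.07 (0.86 to 1.30), and the lower one KLF17 at −1.25 (−3.11 to −0.14) with at most 1.76 CPM; both were named after their values were seen. None of the 15 was past 2-fold after 1 day (2.11% of all tested genes higher and 0.839% lower). None was between the reoxygenated library and 20% O2 at day 10 either (3.4% and 1.41%). Both counts are near those shares.

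**Figure D4:**
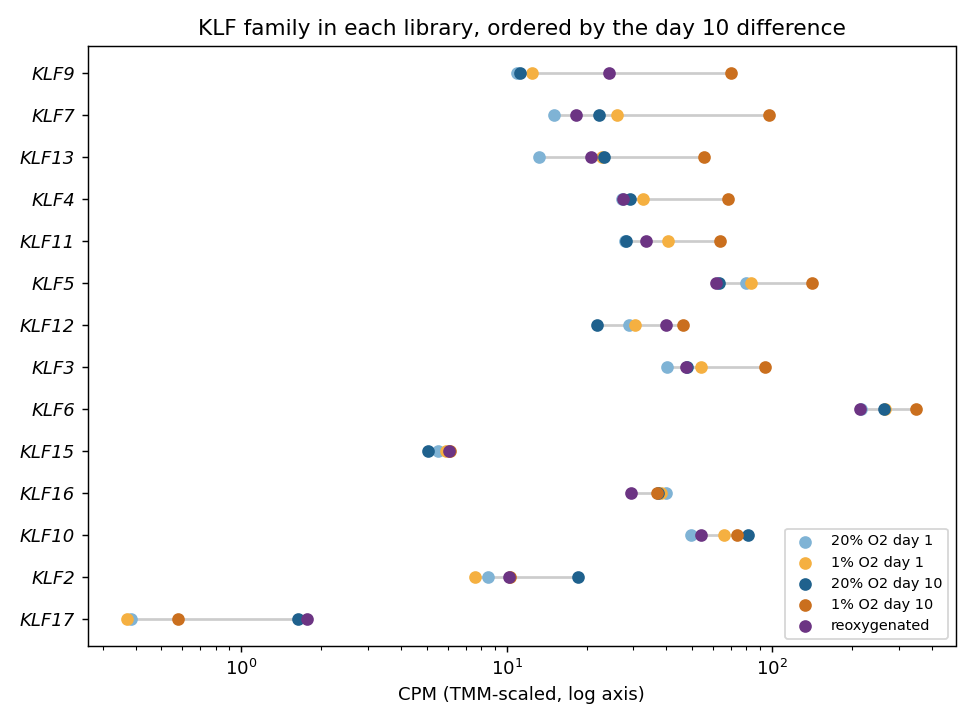
Level (CPM, log axis) of the 14 tested KLF genes, the early ones and their relatives, in each library, ordered by the difference between 1% and 20% O2 at day 10; colours mark the libraries and grey lines span their range. The library of 10 days at 1% O2 is at the right end for KLF9, KLF7, KLF13, KLF4, KLF11, KLF5, KLF12, KLF3, KLF6 and, by a narrow margin, KLF15, and that of 10 days at 20% O2 for KLF10 and KLF2.

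Regulators upstream of the EGR genes were followed next. All 6 genes for serum response factor and its partners passed the filter and none passed 2-fold in any of the comparisons. Among all tested genes 14.4% were higher and 7.04% lower after 10 days at 1% O2, and 2.11% and 0.839% after 1 day. None of 6 genes is near those shares. After 10 days at 1% O2 the median of the 6 was −0.13, with SRF at −0.41 (−0.51 to −0.30), ELK1 at −0.61 (−0.79 to −0.45) and ELK4 at 0.37 (0.28 to 0.47). Of the EGR relatives and corepressors, WT1, NAB1 and NAB2 were tested and differed by 0.57, 0.29 and 0.15; EGR4 was below the filter. IER5 and IER5L differed by 0.63 (0.52 to 0.75) and 0.67 (0.29 to 1.08).

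A list of 20 other immediate early genes had 7 higher and 1 lower after 10 days at 1% O2 (14.4% and 7.04% of all tested genes), with a median of 0.81 against 0.02 over all genes, and 1 higher (FOS, named after its values were seen) and none lower after 1 day (2.11% and 0.839% of all tested genes) with a median of 0.02. DUSP1, which encodes an ERK and stress kinase phosphatase, went from 134 to 538 CPM at day 10, a difference of 2.00 (1.92 to 2.08). The orphan nuclear receptor genes NR4A2 and NR4A1 differed by 1.98 (1.52 to 2.58) and 1.54 (1.09 to 2.12), and FOSL1, an AP-1 subunit gene, by −1.65 (−1.77 to −1.53). None of the 20 was called in edgeR's test over both days, which is near the shares of all tested genes (0.899% rose and 0.0999% fell).

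Genes known to respond to these factors, or to the signals that induce them, were counted in the same way, against 14.4% higher and 7.04% lower among all tested genes after 10 days at 1% O2. Of 7 tested EGR1 targets 2 were higher and none lower after 10 days at 1% O2 (median 0.58), namely PDGFB, a growth factor gene, at 3.28 (2.81 to 4.02) and GDF15, a stress cytokine gene, at 2.39 (2.12 to 2.72). Of 7 KLF2 and KLF4 targets 1 was higher, the cell cycle inhibitor gene CDKN1C, at 2.28 (1.75 to 3.07), and the thrombomodulin gene THBD differed by 0.49 (0.27 to 0.70). Of 7 glucocorticoid-responsive genes, of interest beside KLF9, 2 were higher and 1 lower: ERRFI1, an inhibitor of EGFR signalling, at 2.85 (2.79 to 2.91), TSC22D3 (GILZ) at 1.60 (1.21 to 2.07) and FKBP5, a chaperone of the glucocorticoid receptor, at −1.33 (−1.49 to −1.18). SGK1 differed by −0.831 (−1.095 to −0.585). Of the 7, 5 were above 0, with a median of 0.53. Of 8 TGF-beta response genes, of interest beside KLF10, TGFB2 was higher at 1.15 (1.05 to 1.25), and TGFBI differed by 0.90 (0.81 to 0.99). In edgeR's test over both days PDGFB (adjusted p = 0.0215), GDF15 (adjusted p = 0.0497) and ERRFI1 (adjusted p = 0.00119) rose. No KLF2 and KLF4 target and no TGF-beta response gene was called. That is near the shares of all tested genes in this test (0.899% rose and 0.0999% fell).

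Of 9 factors that bind or degrade AU-rich mRNAs, 1 was higher and 1 lower after 10 days at 1% O2 (14.4% and 7.04% of all tested genes), with a median of −0.40. HNRNPD (AUF1) went from 630 to 258 CPM, a difference of −1.29 (−1.35 to −1.23), and KHSRP differed by −0.79 (−0.86 to −0.72). ZFP36L1 differed by 1.00 (0.92 to 1.09) and ZFP36 (tristetraprolin), itself an immediate early gene, by 0.85 (0.54 to 1.18). None of the 9 was called in edgeR's test over both days, which is near the shares of all tested genes (0.899% rose and 0.0999% fell). The part of these levels in those of the early genes was not tested.

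Genes with the most similar profile were found by the root mean square difference between log2 levels over the 5 libraries, each gene centred on its own mean. Among the early genes other than EGR2 the closest pair was IER3 and KLF4, at 0.13, followed by KLF6 and KLF10 at 0.18 and EGR1 and KLF2 at 0.19. Outside them, KLF9 was nearest to ALPK1 (0.09), HLA-F-AS1 (0.13) and AQP3 (0.13), KLF4 to TMEM156, LPCAT1 and CARHSP1 (each 0.04), and IER3 to APH1B (0.03), IGFBP6 and ANKRD9 (both 0.05). EGR1 was nearest to PHACTR1 (0.15), KRT7 (0.15) and NEK3 (0.18), and KLF2 to NEK3 and LOC652276 (both 0.18) and PTGFR (0.18). KLF6 had a near-identical profile in PDXK (0.01). With 5 points per gene and 13940 genes to choose from, close matches are easy to find, and the values are a description only.

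GENCODE 29 places a gene on the opposite strand across part of IER2, of IER3 (IER3-AS1) and of EGR3. The strand setting of the counting is not given in the sources used here, so reads of these genes and of their antisense partners cannot be told apart. In bulk RNA, a higher level in each cell and a larger share of cells with a high level cannot be told apart either.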

How the data were processed

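Per the labels' protocols, total RNA that passed an integrity check was made into libraries with a KAPA mRNA kit. The submitters' processing notes name hg38 and, without roles, the tools edgeR, RSEM 1.2.15 and Bowtie2 2.1.0. Annotation and strand setting: not given in the sources used here. The authors deposited expected counts per gene symbol (3.58% to 4.09% of values in a library not whole) and a signal table on a TMM-scaled CPM scale. Of the signal values 100% were whole reads within 0.02 reads, all equal to the rounded expected counts. The signal table thus served as an alternative in scaling and log offset only, not in counts.

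Expected counts were rounded, filtered at 1 CPM in at least 1 library (pairwise) or 2 libraries (test), scaled by TMM (factors 0.965 to 1.07) and given as log2 CPM with a prior count of 2. Intervals are Clopper-Pearson (ratios) and Poisson (levels); that of EGR3 is from few counts. For the difference of differences, the intervals given for KLF9 and EGR3 are normal approximations from the counts. Tools were R 4.3.3, edgeR 4.0.16, limma 3.58.1 and DESeq2 1.42.0, with Benjamini-Hochberg adjustment at 0.05. No label names separate cultures, and the p-values then reflect only how these libraries spread, which may be technical. Scripts were tested on simulated data. No molecular identifiers are named, so reads may not be independent molecules and intervals cover counting error only.

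All 10 early genes are named; of each list up to 4 genes with at least 5 CPM and the largest chronic difference in size, and for likeness 3 genes each. Genes outside this rule are named as such. The members and lists were chosen with earlier results of these data known. Coordinates are GENCODE 29 on GRCh38; promoters are RefSeq.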

Additional observations from a re-analysis of the deposited data

Results flagged for a closer look

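KLF10 differed in opposite directions on the 2 days, with intervals that exclude 0 on both: 0.41 (0.25 to 0.58) after 1 day and −0.14 (−0.28 to −0.004) after 10 days at 1% O2. The day 10 difference minus the day 1 difference was −0.55. The day 10 value was −0.01 when scaled to library totals without TMM, −0.06 with a filter of 5 CPM and −0.12 with DESeq2 size factors, so that its distance from 0 depends on the scaling. Each value rests on a single library per condition, and the difference between days was not tested.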

How the results depend on the processing

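Pairwise counts of early genes past 2-fold kept within 1.5 times under 37 of 42 alternatives. With a filter of 5 CPM, which removes EGR3, the count was 0 after 1 day and 1 for reoxygenated against 20% O2 at day 10. With the deposited TMM table as log2(value + 1) these counts were 0 and 0 (KLF9 then at 0.99), and 1 for the day 10 minus the day 1 difference. No early gene past 2-fold changed sign; IER2 within 1% O2 turned from −0.09 to 0.05 with library totals. Genes called in the test over both days, 130 as reported, were 81 with DESeq2 size factors, 49 with DESeq2, 223 with limma-voom, 29 with a filter of 5 CPM, 281 with no filter (KLF9 then called, adjusted p = 0.00253) and 0 without the day term (462 at an unadjusted p under 0.05 in edgeR). Leaving out 1 library and the day term gave 0 to 4336 calls: 0 without either 20% O2 library (145 and 209 at an unadjusted p under 0.05), 13 when the later 1% O2 library was dropped and 4336 (of 13011 tested, IER3, KLF4, KLF6 and KLF9 among them) when the earlier one was. The lone library of an arm is assumed there to vary like the pair in the other arm, which differ by day, and the other 3 such fits called none of the early genes; the causes were not tested. Reads recovered from the deposited table, a setting chosen after seeing the data, equal the rounded counts. They therefore had to give the same 117 risen and 13 fallen genes, which is no check of the processing. No paired analysis was possible because the labels carry no replicate numbers and each condition has 1 library. Depth limits EGR2 and EGR3, for which 3 counts correspond to 0.245 to 0.377 CPM.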
